A study of Solanum lycopersicum with 27 samples.

Results

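Chilling was examined after 30 min in shoots of tomato seedlings of the M82 cultivar, by setting the 3 RNA-Seq libraries of shoots at 4°C against the 3 libraries of shoots at 24°C, which are 6 of the 27 libraries of the series. The libraries were taken by their labels (shoot, 30 min, cold or ambient), and nuclear genes were described apart from genes of the plastid and mitochondrial genomes. Seedlings were 18 days old and grew in hydroponics after germination on plates. They were moved to fresh containers 2.5 h after lights came on, the chilled ones at 4°C in a cold room and the ambient ones at 24°C, both under the same light. The remaining shoot libraries serve here as context: 6 taken just before the transfer (T0), and 3 each after 3 h at 4°C and at 24°C. Each library is a pool of shoots from 4 seedlings of 1 cultivar, so that cell types are mixed, and fewer cells of a type cannot be told apart from less RNA per cell.

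Tomato comes from warm habitats and is injured by temperatures that hardier plants tolerate. In Arabidopsis, cooling stiffens membranes and lets calcium into the cytosol, calcium sensors and mitogen-activated protein kinases relay the signal, and transcription factors of the CBF/DREB1 family, zinc fingers and MYB factors switch on protective genes. CBF factors bind a short promoter element and turn on genes for cold-protective proteins and sugars. Many of these genes are also gated by the circadian clock, and their transcripts react to touch and handling, so the time of day and the transfer itself enter any comparison of a treated plant with the plant before treatment. Chloroplasts keep a small genome of their own, which encodes core photosynthesis subunits and parts of the plastid's translation and transcription machinery. Gene names below are mostly those of the closest Arabidopsis gene, and roles given for a name are known from Arabidopsis unless stated.

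Values are read counts per gene that the authors normalized by the trimmed mean of M-values, and they sum to nearly the same total in each shoot library (20328938 to 20332140), so that no library's depth can be read from them. Pearson correlations of log2 values over nuclear genes were 0.970 to 0.979 between replicates at 4°C, 0.974 to 0.978 between replicates at 24°C, and 0.957 to 0.973 across temperatures. Of 3 nuclear photosynthesis genes taken to mark a shoot, CP12 averaged 1674 ± 185 at 4°C and 1884 ± 97.6 at 24°C (SD, n = 3 each) and PGR5-LIKE A 916 and 906, while HCEF1 was low at 36.2 and 20.1. Genes on a root list were also measured, with PHT1;4 at 500 at 4°C and 651 at 24°C, FRD1 at 177 and 193, and PHT1;7 at 31.7 and 19.6, and none of these 6 was called. The share of all values held by plastid genes was 4.49, 6.29 and 4.12% at 4°C, against 0.222, 0.406 and 0.643% at 24°C, and its part in the nuclear differences was not tested. At T0 that share was 2.05 to 2.32% in the 3 libraries of the sequencing batch of the 30 min samples, and 0.394 to 0.718% in the other 3, which were sequenced with the 3 h samples. Among the 6 libraries, 4°C replicate 2 had the highest plastid share and the lowest scaling factor (0.883, against 0.956 to 1.00 in the other 5), and results that rest on it are given without it.

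Within 30 min, all 5 CBF and DREB1 genes and 10 of 25 WRKY genes were higher at 4°C than at 24°C. So were 7 of 20 kinase and ubiquitin ligase genes and 6 of 16 cell wall genes. Of 16 clock genes 4 were lower and 1 higher, and of 12 light and flowering genes 3 were lower and 1 higher. Of 12 auxin genes 2 were lower. The counts of these last 3 lists moved with the settings, as given below. Of 20535 features tested with limma on log2(value + 1), 6.07% differed at an adjusted p under 0.01 (Benjamini-Hochberg over all features), the threshold of every call below. Among the 20368 nuclear genes, 5.48% were called: 457 genes (2.24%) were higher at 4°C and 660 (3.24%) were lower. Lists by role draw on the 768 nuclear genes with a name, of which 172 were called, and list counts are to be read beside that share. The higher genes moved further, with a median log2 difference of 1.17, and 286 of the 457 differed at least 2-fold and 94 at least 4-fold. The lower genes had a median of −0.683, and 170 of the 660 differed at least 2-fold and 15 at least 4-fold. The median over all nuclear genes was −0.069. Here and below, values after ± are standard errors where they follow a log2 difference. Of the 1117 called nuclear genes, 1115 had 3 values at 4°C that lay all above or all below the 3 values at 24°C. The same held for 24.3% of all nuclear genes tested. The calls use these same values, so this separation is no separate support for them.

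Both the balance of directions and the totals moved with the settings. Rescaled by median ratios over nuclear genes, which moved every difference up by 0.0602 on the log2 scale, 525 nuclear genes were higher at 4°C and 454 lower (53.6% higher, against 40.9% as deposited). With only the 6 libraries at 30 min in the fit, 342 were higher and 330 lower, and 607 of those 672 were also called with all 18 shoot libraries. Without 4°C replicate 1 the counts were 296 higher and 372 lower, without 4°C replicate 2 they were 381 and 554, and without 24°C replicate 3 they were 322 and 377.

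**Figure D1:**
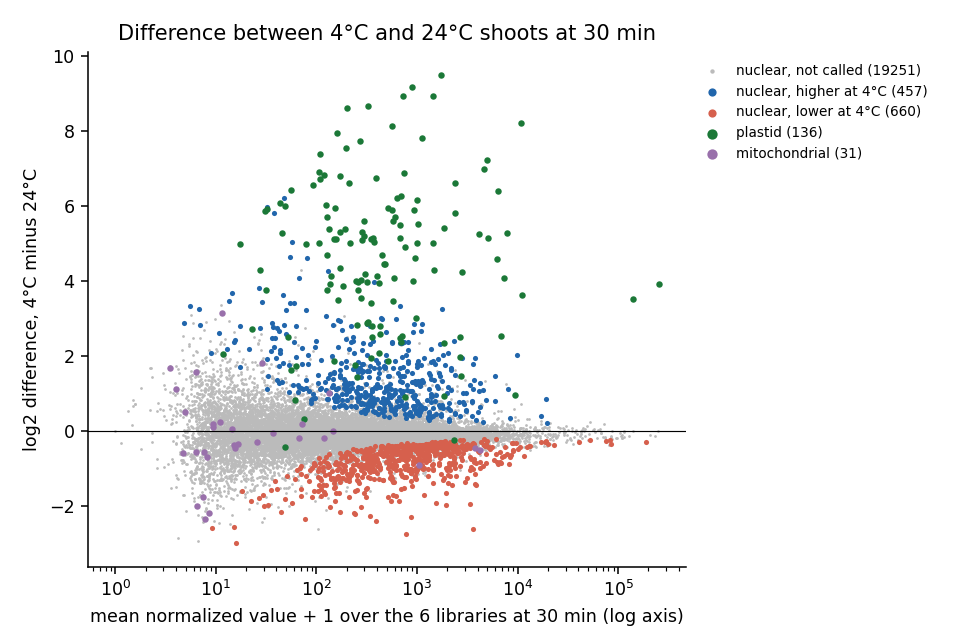
The log2 difference of each tested gene between shoots at 4°C and 24°C at 30 min (vertical axis, 4°C minus 24°C) is plotted against its mean normalized value plus 1 over the 6 libraries (log axis). Of the nuclear genes, 457 were called higher at 4°C (blue) and 660 lower (red), and the plastid genes (green) lie mostly above them.

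All 5 measured members of the CBF and DREB1 list were higher at 4°C, with log2 differences of 2.53 to 4.61 and a median of 2.83. CBF2 (Solyc03g124110), one of the DREB1 factors that activate cold-protective genes, had 212, 157 and 93.4 at 4°C, against 8.72, 2.23 and 5.91 at 24°C. At T0 it ranged from 34.2 to 152 with a median of 80.2. Chilled replicates 1 and 2 lay above that range, replicate 3 within it, and all 3 ambient libraries below it. The log2 difference of CBF2 was 4.61 ± 0.53, adjusted p = 7.12e-06. CBF3 (Solyc03g026280), a neighbour of CBF1 on the chromosome, had 537, 322 and 315 at 4°C, against 66.9, 78.8 and 52.0 at 24°C. Its T0 values were 68.9 to 295 with a median of 211. Here every chilled library exceeded every library taken before transfer, and the log2 difference was 2.53 ± 0.49, adjusted p = 0.0019. CBF1 (Solyc03g026270) had 107, 90.0 and 56.5 at 4°C, against 11.6, 14.7 and 11.8 at 24°C, with a log2 difference of 2.60 ± 0.45, adjusted p = 0.000662. CBF4 (Solyc08g007820) had 226, 385 and 162 at 4°C, against 28.1, 45.0 and 28.5 at 24°C, with a log2 difference of 2.83 ± 0.39, adjusted p = 5.04e-05. DDF1 (Solyc08g007830), which in Arabidopsis also acts on gibberellin breakdown, had 217, 363 and 99.2 at 4°C, against 22.3, 30.3 and 16.6 at 24°C, and its log2 difference was 3.09 ± 0.69, adjusted p = 0.00556. Its chilled libraries spread widely, with 4°C replicate 2 the highest and replicate 3 the lowest. With single libraries left out, the call was lost for DDF1 (adjusted p 0.0129 to 0.0308 without 4°C replicate 1 or 2 or 24°C replicate 1, 2 or 3) and CBF3 (adjusted p 0.0131 to 0.015 without 4°C replicate 1 or 24°C replicate 3). Without 4°C replicate 1 or 24°C replicate 3, 3 of the 5 were called.

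The differences of CBF1, CBF2 and CBF3 from 24°C were larger after 3 h. The values of CBF1 at 4°C were 107, 90.0 and 56.5 at 30 min and 70.5, 43.3 and 62.4 at 3 h. Its larger difference thus came with lower ambient values and no rise in the cold. At 24°C and 3 h, CBF1 and CBF2 both had 1.44, 0.044 and 0.027, so the added 1 limits their log2 differences there. Between the 3 h libraries, which share no sample with those of 30 min and belong to the other batch, the log2 differences were 8.79 ± 0.49 for CBF3, 8.04 ± 0.53 for CBF2 and 5.41 ± 0.45 for CBF1, against 24°C at 3 h. The change of the difference was 6.26 ± 0.69 for CBF3, 3.43 ± 0.75 for CBF2 and 2.81 ± 0.64 for CBF1 in the interaction test of limma. For CBF4 the change was 1.86 ± 0.54 and for DDF1 it was 2.20 ± 0.97, neither of which was called.

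Among 9 zinc finger and MYB factors of the cold response, 7 were higher at 4°C and none lower, with a median log2 difference of 1.81. ZAT10 (Solyc04g077980), a zinc finger repressor of the stress response, had 1803, 2153 and 1668 at 4°C, against 296, 331 and 253 at 24°C, and 937 to 1465 with a median of 1135 at T0. All chilled libraries lay above T0 and all ambient ones below it, and the log2 difference was 2.67 ± 0.14, adjusted p = 1.48e-10. The CZF1 genes Solyc05g052550 and Solyc05g052570, whose product is a CCCH-type zinc finger, had log2 differences of 1.85 ± 0.13 and 1.81 ± 0.13. They lie close together on the chromosome. CZF1 Solyc05g052570 had 6301, 5062 and 5276 at 4°C, against 1577, 1921 and 1286 at 24°C, and all 3 chilled libraries lay above T0. AZF3 (Solyc12g088400), another zinc finger repressor, had 88.0, 67.4 and 145 at 4°C, against 22.3, 13.8 and 16.8 at 24°C (log2 difference 2.39 ± 0.53, adjusted p = 0.00535). MYB15, a regulator of CBF genes in Arabidopsis, is a name given to 2 tomato genes. MYB15 Solyc09g090130 had 232, 195 and 239 at 4°C, against 70.8, 76.8 and 76.9 at 24°C. MYB15 Solyc07g053230 had 190.4, 241 and 76.0 at 4°C, against 29.1, 29.4 and 25.2 at 24°C. Their log2 differences were 1.55 ± 0.26 and 2.40 ± 0.55, and the values of Solyc07g053230 spread more at 4°C. Without certain single libraries there was no call for AZF3 (adjusted p 0.0116 to 0.0277 without 4°C replicate 1 or 3 or 24°C replicate 1, 2 or 3) and MYB15 Solyc07g053230 (adjusted p 0.0213 to 0.0355 without 4°C replicate 1 or 2 or 24°C replicate 1, 2 or 3).

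WRKY factors act in defence and wounding, and 10 of 25 measured members (40%) were higher at 4°C and none lower, with a median log2 difference of 1.22. The study chose these families on the same samples, so the count is not independent evidence of a direction. WRKY22 (Solyc10g011910) had 57.5, 119 and 77.4 at 4°C, against 6.79, 4.27 and 5.91 at 24°C. WRKY33, which guards against fungi, is a name of 2 genes here. WRKY33 Solyc06g066370 had 2675, 2690 and 4494 at 4°C, against 796, 788 and 657 at 24°C. WRKY33 Solyc09g014990 had 513, 452 and 799 at 4°C, against 70.8, 125 and 57.7 at 24°C. The log2 differences were 3.64 ± 0.30 for WRKY22, 2.82 ± 0.26 for Solyc09g014990 and 2.10 ± 0.22 for Solyc06g066370, with adjusted p of 7.56e-08, 4.24e-07 and 1.7e-06. For both WRKY33 genes, 4°C replicate 3 was the highest library. WRKY41 (Solyc01g095630) had 1439, 1114 and 2211 at 4°C, against 177, 304 and 260.3 at 24°C. WRKY11 (Solyc08g006320) had 2092, 2554 and 2370 at 4°C, against 637, 654 and 739.5 at 24°C. In each of these 5 WRKY genes all ambient libraries lay below T0. The chilled ones lay within T0 for WRKY11 and Solyc06g066370, and on both sides of its range of 1287 to 1936 with a median of 1568 for WRKY41.

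Ethylene response factors, a family that includes the CBF genes, had 23 of 53 measured members higher and 3 lower, with a median log2 difference of 1.15. This family too was chosen by the study on these samples. Among called nuclear genes whose mean reached 100 at either temperature, the largest difference was that of Solyc12g009240, a family member without a name in the sources used here. It had 65.0, 178 and 83.2 at 4°C, against 11.6, 1.16 and 0 at 24°C, and its log2 difference was 5.05 ± 0.77, adjusted p = 0.000174. RRTF1 (Solyc01g108240), a redox-responsive factor, had 479, 1449 and 201 at 4°C, against 49.4, 28.6 and 23.3 at 24°C. Its 4°C replicate 2 lay far above the other chilled libraries, and the log2 difference was 3.97 ± 0.80, adjusted p = 0.00247. ERF4 (Solyc07g053740), a repressor in ethylene and jasmonate signalling, had 3933, 4426 and 5094 at 4°C, against 1088, 1154 and 1199 at 24°C, with all chilled libraries above T0 and all ambient ones below it (log2 difference 1.96 ± 0.13, adjusted p = 4.42e-09). CRF2 (Solyc08g081960), a cytokinin response factor, was lower, with 122, 139 and 117 at 4°C, against 305, 249 and 284 at 24°C. The call depended on single libraries for RRTF1 (adjusted p 0.0104 to 0.0169 without 4°C replicate 1 or 2 or 24°C replicate 2 or 3) and CRF2 (adjusted p 0.0113 to 0.0168 without 4°C replicate 1 or 3 or 24°C replicate 1 or 3).

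**Figure D2:**
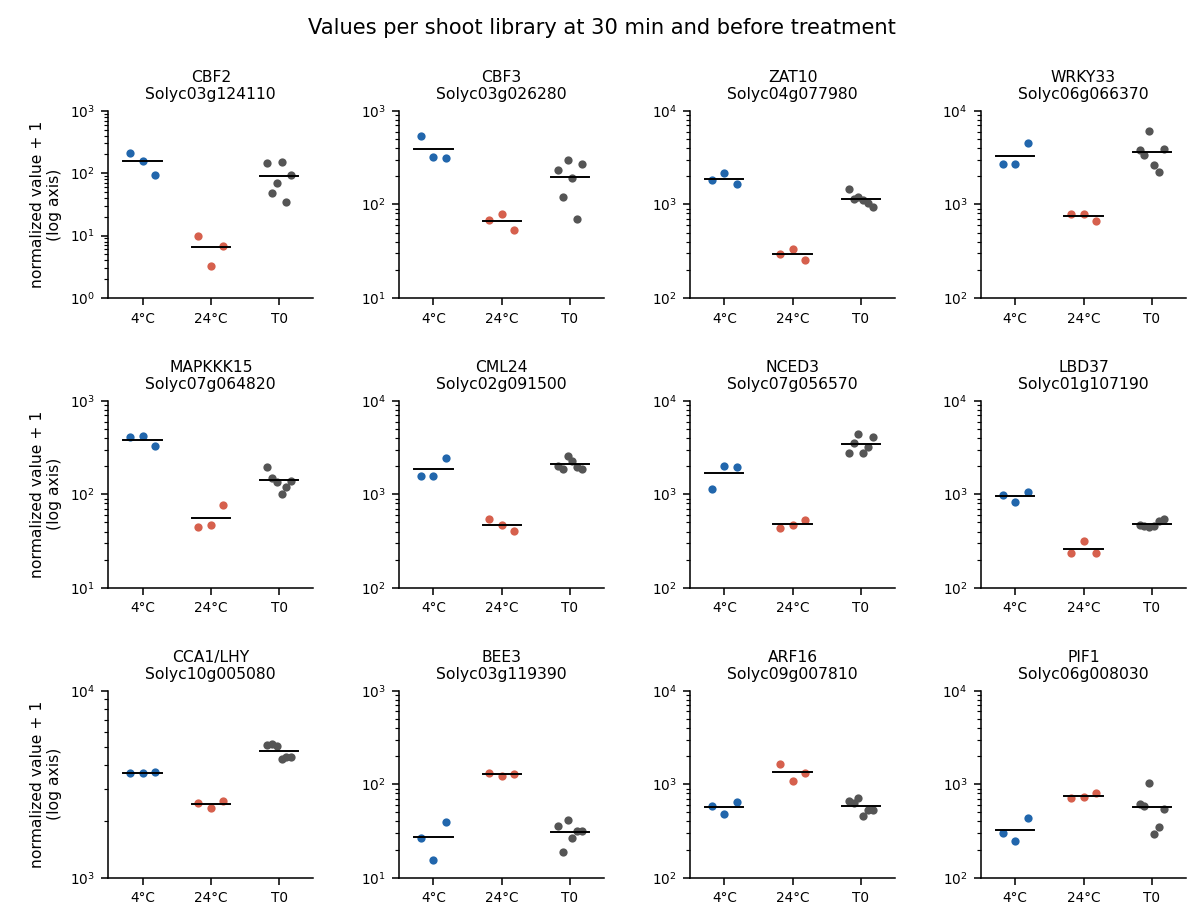
Normalized value plus 1 (log axis) of 12 genes in each shoot library at 4°C (blue) and 24°C (red) for 30 min and at T0 (grey), with the group mean as a line. For CBF2 and WRKY33 the ambient libraries lie below T0, while BEE3 and ARF16 lie above T0 at 24°C alone.

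Members of other families were fewer. ANAC062 (Solyc06g073050), a membrane-bound NAC factor released by cold in Arabidopsis, had 2693, 2505 and 2474 at 4°C, against 704, 809.5 and 521 at 24°C. Its log2 difference was 1.94 ± 0.19, adjusted p = 1.11e-06, and 4 of 14 NAC genes were higher and none lower. Of 11 LOB-domain genes on the list 5 were measured, and 3 of these were higher. LBD37 (Solyc01g107190), a repressor of nitrogen-responsive genes, had 977, 828 and 1057 at 4°C, against 238, 318 and 232 at 24°C, and 447 to 537 with a median of 465 at T0. LBD41 (Solyc03g119530), known from low oxygen, had 419, 395 and 341 at 4°C, against 103, 129.5 and 152 at 24°C, and 208 to 289 with a median of 247 at T0. In both, the chilled libraries lay above T0 and the ambient ones below it, with log2 differences of 1.87 ± 0.18 and 1.59 ± 0.17. By 3 h the difference of LBD37 had turned, at −0.85 ± 0.18, and the change of −2.71 ± 0.25 was called. LBD41 stood at −0.39 ± 0.17 at 3 h, and its change of −1.99 ± 0.24 was also called. PAT1 (Solyc12g005340), a GRAS-family factor of phytochrome signalling, had 2310, 2585 and 1860 at 4°C, against 691, 631 and 501 at 24°C, within a family of 20 in which 4 were higher and 5 lower.

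Calcium signalling genes had 5 of 22 members higher at 4°C and none lower, and a median log2 difference of 0.68. That is 22.7% called, against 5.48% of all nuclear genes. Of the 768 nuclear genes with a name, from which the list was drawn, a similar share (172) was called. CML24 (Solyc02g091500), a calmodulin-like calcium sensor, had 1561, 1581 and 2455 at 4°C, against 547, 467 and 409 at 24°C, with a log2 difference of 1.95 ± 0.16, adjusted p = 6.77e-08. CML42 (Solyc10g074740) had 1951, 2196 and 1831 at 4°C, against 732, 863 and 691 at 24°C. CML38 (Solyc11g071740), a relative that wounding induces, had 495, 724 and 327 at 4°C, against 103, 149 and 105 at 24°C. ACA2 (Solyc02g064680), a calcium pump of inner membranes, had 16230, 21430 and 10630 at 4°C, against 3506, 4767 and 3208 at 24°C, and 6672 to 26850 with a median of 19100 at T0. The log2 differences of these 3 were 1.39 ± 0.16, 2.05 ± 0.44 and 2.04 ± 0.40, and in ACA2 and CML38 replicate 2 was the highest chilled library and replicate 3 the lowest. CAM5 (Solyc10g081170), a conventional calmodulin, had 19370, 16070 and 12390 at 4°C, against 18150, 20510 and 22780 at 24°C and was not called (adjusted p 0.273). Leaving out 1 library at a time ended the call of CML38 (adjusted p 0.0175 to 0.0243 without 4°C replicate 1 or 2 or 24°C replicate 1 or 3) and ACA2 (adjusted p 0.0108 to 0.0137 without 4°C replicate 1 or 2 or 24°C replicate 1 or 3). Without 4°C replicate 1 or 2 or 24°C replicate 1 or 3, 2 of the 22 were called.

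Kinase and ubiquitin ligase genes had 7 of 20 members higher and none lower, with a median of 0.79. MAPKKK15 (Solyc07g064820), an upstream kinase of a mitogen-activated cascade, had 406, 417 and 324 at 4°C, against 43.6, 45.4 and 76.6 at 24°C, and 99.2 to 197 with a median of 138 at T0. All chilled libraries lay above T0 and all ambient ones below it (log2 difference 2.81 ± 0.22, adjusted p = 3.64e-08). MPK3 (Solyc06g005170), a kinase at the end of such a cascade, had 6562, 7484 and 4069 at 4°C, against 1394, 1749 and 1426 at 24°C, with a log2 difference of 1.95 ± 0.34, adjusted p = 0.000795. RBOHD (Solyc03g117980), the oxidase that makes superoxide at the cell surface, had 8866, 11810 and 5679 at 4°C, against 2685, 3679 and 2785 at 24°C, with a log2 difference of 1.48 ± 0.33, adjusted p = 0.00592. PUB22 and PUB23 are U-box ubiquitin ligases that damp immune and drought signalling, and the tomato genes of these names lie side by side. PUB23 Solyc01g007000 had 62.7, 152 and 35.6 at 4°C, against 12.6, 7.44 and 7.48 at 24°C. PUB23 Solyc01g007030 had 116, 182 and 79.6 at 4°C, against 3.88, 4.31 and 12.2 at 24°C. Their unnamed neighbour Solyc01g007040 had 129, 134 and 45.9 at 4°C, against 8.72, 4.21 and 0 at 24°C. All ambient libraries of these 3 genes lay below T0, and the log2 differences were 2.84 ± 0.54, 4.10 ± 0.54 and 4.66 ± 0.71. PUB22 (Solyc01g007020) had 220.2, 242 and 212 at 4°C, against 93.1, 88.6 and 122 at 24°C (log2 difference 1.15 ± 0.26, adjusted p = 0.00684). These neighbours may share reads, so the value of each single copy is uncertain. With single libraries left out, the call was lost for RBOHD (adjusted p 0.0108 to 0.0339 without 4°C replicate 1 or 2 or 24°C replicate 1, 2 or 3), PUB23 Solyc01g007000 (adjusted p 0.0102 to 0.0123 without 4°C replicate 2 or 24°C replicate 3) and PUB22 (adjusted p 0.0141 to 0.0343 without 4°C replicate 1, 2 or 3 or 24°C replicate 1 or 2). Without 4°C replicate 2, 4 of the 20 were called.

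Of jasmonate genes, 1 of 18 was higher and 1 lower while the median log2 difference was 1.51, and the chilled libraries differed widely. AOS (Solyc04g079730), an enzyme of jasmonate synthesis, had 1343, 4645 and 496 at 4°C, against 537, 328 and 428 at 24°C. LOX3 (Solyc03g122340), another enzyme of that pathway, had 6644, 11840 and 2556 at 4°C, against 1800, 2476 and 2816 at 24°C. JAZ1 (Solyc12g009220), a repressor that jasmonate induces, had 1695, 3027 and 654 at 4°C, against 312, 289.6 and 279.5 at 24°C. In each of these 3 genes 4°C replicate 2, also the library with the highest plastid share, was the highest and replicate 3 the lowest chilled library. None was called (adjusted p 0.25, 0.122 and 0.0288). The JAZ8 gene Solyc08g036660 had 102, 251 and 33.7 at 4°C, against 26.2, 3.35 and 0 at 24°C with an adjusted p of 0.0516, and its neighbours of the same name may share reads. Without 4°C replicate 2 the list's median was 0.892, with no member higher and 1 lower, and with only the 6 libraries at 30 min in the fit 3 members were higher and none lower. The member that was higher is CYP94B1 (Solyc07g006890), which breaks down active jasmonate, with 2653, 3743 and 2313 at 4°C, against 763, 1120 and 684 at 24°C and a log2 difference of 1.76 ± 0.35. The member that was lower is LOX5 (Solyc09g075860), with 977, 913 and 854 at 4°C, against 1330, 1197 and 1564 at 24°C and a log2 difference of −0.57 ± 0.08, a call that was lost with only those 6 libraries (adjusted p 0.0113). Without certain single libraries there was no call for CYP94B1 (adjusted p 0.0125 to 0.0162 without 4°C replicate 2 or 24°C replicate 1 or 3).

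In other hormone pathways single genes of synthesis and breakdown were called. ACS8 (Solyc02g063540), which makes the ethylene precursor, had 63.3, 54.5 and 30.6 at 4°C, against 1.94, 1.12 and 5.24 at 24°C, with a log2 difference of 3.83 ± 0.59, adjusted p = 0.000193. NCED3 (Solyc07g056570), the rate-limiting enzyme of abscisic acid synthesis, had 1126, 2000 and 1950 at 4°C, against 438, 464 and 532 at 24°C, with a log2 difference of 1.78 ± 0.19, adjusted p = 3.47e-06. All 6 of these libraries lay below the T0 range of 2749 to 4370 with a median of 3340. It was the only gene called of 11 on the abscisic acid list, whose median was 0.40. Among 8 gibberellin genes, GA2OX6 (Solyc01g079200), which inactivates gibberellin, had 537, 686 and 252 at 4°C, against 66.9, 114 and 86.9 at 24°C. GA3OX1 (Solyc03g119910), which makes the active form, had 156, 174 and 260.4 at 4°C, against 99.9, 60.3 and 95.6 at 24°C. Both were higher at 4°C, by 2.36 ± 0.49 and 1.19 ± 0.25 on the log2 scale. At 3 h the difference was 4.84 ± 0.49 for GA2OX6 and −1.30 ± 0.25 for GA3OX1, and the change of GA3OX1 by −2.49 ± 0.36 was called. SCL-3 (Solyc01g008910), a GRAS factor of the gibberellin pathway, was lower, with 75.2, 83.9 and 79.2 at 4°C, against 195, 145 and 251 at 24°C. The call depended on single libraries for GA2OX6 (adjusted p 0.0139 to 0.0195 without 4°C replicate 1 or 2 or 24°C replicate 1 or 3), GA3OX1 (adjusted p 0.022 to 0.0287 without 4°C replicate 3 or 24°C replicate 2) and SCL-3 (adjusted p 0.0118 to 0.0205 without 4°C replicate 1 or 24°C replicate 1 or 3).

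Auxin genes had 2 of 12 members lower and none higher, with a median of −0.32. ARF16 (Solyc09g007810), an auxin response factor, had 586, 479.9 and 638 at 4°C, against 1658, 1096 and 1310 at 24°C, and 458 to 715 with a median of 584 at T0, so that the ambient libraries alone stood apart (log2 difference −1.24 ± 0.15, adjusted p = 1.39e-05). ARF7 (Solyc05g047460), an activator of the same family, had 1313, 1329 and 1356 at 4°C, against 1695, 1782 and 1736 at 24°C, with a log2 difference of −0.38 ± 0.09, and all 6 libraries lay below T0. BEE3 (Solyc03g119390), a growth factor gene that brassinosteroid induces early, had 25.4, 14.7 and 38.2 at 4°C, against 131, 120.1 and 128 at 24°C, and 17.8 to 40.7 with a median of 30.6 at T0. Its log2 difference was −2.33 ± 0.46, adjusted p = 0.00233. BEH4 (Solyc02g071990), a relative of the brassinosteroid factor BES1, was higher, with 662, 663 and 625 at 4°C, against 383, 396 and 353 at 24°C and a log2 difference of 0.78 ± 0.11. Leaving out 1 library at a time ended the call of ARF7 (adjusted p 0.0149 to 0.0313 without 4°C replicate 1, 2 or 3 or 24°C replicate 1, 2 or 3) and BEE3 (adjusted p 0.0109 to 0.015 without 4°C replicate 2 or 24°C replicate 1 or 3). The number of auxin genes called was 1 after nuclear rescaling.

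Cell wall genes had 6 of 16 members higher and none lower, with a median of 0.90. XTH23 Solyc03g093110, an enzyme that cuts and rejoins xyloglucan, had 1094, 527 and 561 at 4°C, against 225, 241 and 157 at 24°C. Of the 4 genes of this name 2 were called, and these copies lie together and may share reads. XTH15 (Solyc07g056000), of the same enzyme family, had 1214, 911 and 867 at 4°C, against 398, 435 and 261 at 24°C. EXO (Solyc04g074440), known for promoting leaf growth, had 1538, 1234 and 1345 at 4°C, against 612, 619 and 419 at 24°C. Log2 differences were 1.75 ± 0.31 for XTH23, 1.47 ± 0.33 for XTH15 and 1.34 ± 0.22 for EXO. All were larger at 3 h, with changes of 5.18 ± 0.44, 5.51 ± 0.46 and 4.94 ± 0.30 that were called. With single libraries left out, the call was lost for XTH15 (adjusted p 0.0102 to 0.038 without 4°C replicate 1 or 2 or 24°C replicate 1, 2 or 3). Of the 16 cell wall genes 2 were called without 4°C replicate 1 or 24°C replicate 3, and 3 without 24°C replicate 1.

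Enzymes that make protective sugars and polyamines differed modestly, with 3 of 8 higher, none lower and a median of 0.72. TPS7 (Solyc02g072150), of the trehalose phosphate synthase family, had 2372, 3882 and 3691 at 4°C, against 1940, 2108 and 1646 at 24°C. SAMDC2 (Solyc02g089610), which supplies the aminopropyl group of polyamines, had 2550, 2932 and 2291 at 4°C, against 1582, 1498 and 1498 at 24°C. ADC2 (Solyc10g054440), which starts polyamine synthesis from arginine, had 25180, 31090 and 18620 at 4°C, against 11860, 14410 and 14040 at 24°C. These are log2 differences of 0.78 ± 0.14, 0.76 ± 0.12 and 0.87 ± 0.19. At 3 h they were 2.15 ± 0.14, 3.52 ± 0.12 and 3.06 ± 0.19, and the changes of 1.38 ± 0.20, 2.77 ± 0.17 and 2.19 ± 0.27 were all called. Without certain single libraries there was no call for ADC2 (adjusted p 0.0128 to 0.031 without 4°C replicate 1 or 2 or 24°C replicate 1, 2 or 3). The paper's text gives another gene as arginine decarboxylase 2, and the values of that gene are not given here. At 30 min TPS7 was not called with only the 6 libraries (adjusted p 0.0176), nor SAMDC2 with the T0 libraries as 1 group (adjusted p 0.0292).

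**Figure D3:**
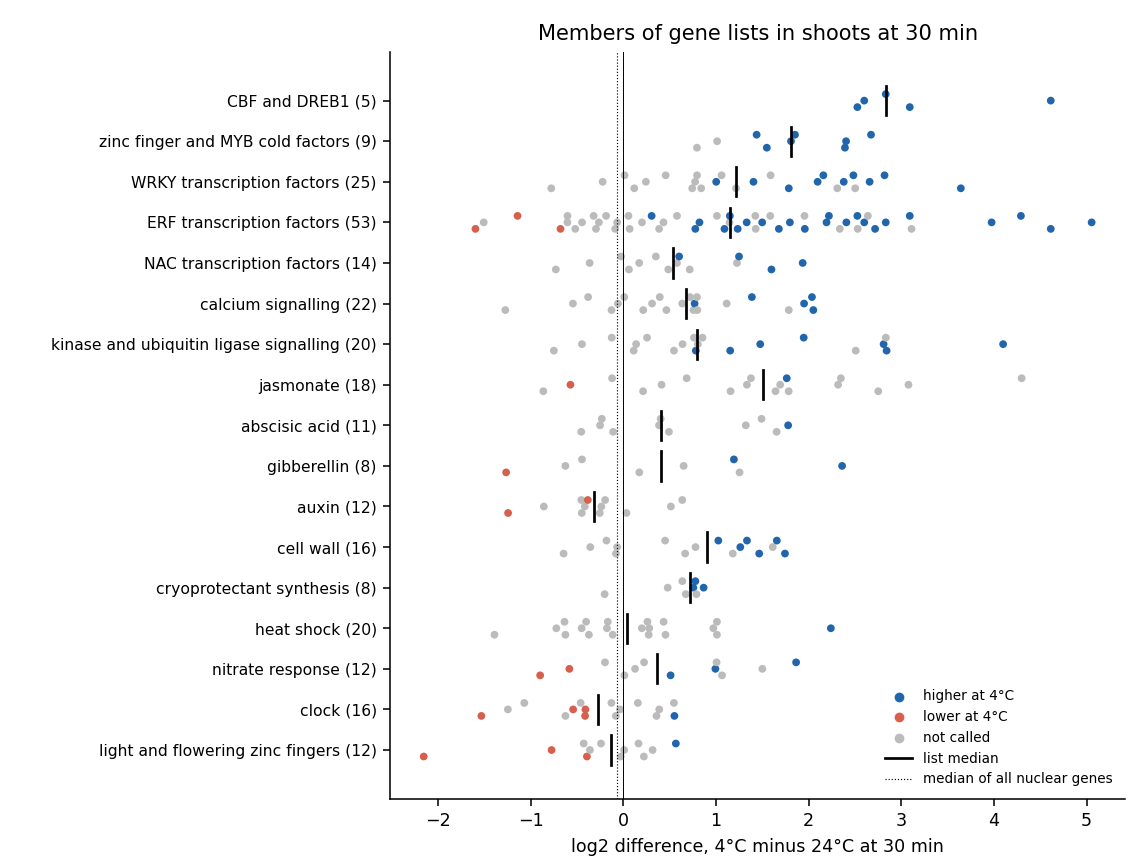
Each point is a tested member of a gene list, placed by its log2 difference at 30 min (4°C minus 24°C) and coloured by its call, with the list's median as a line and the number of members tested in brackets. The 5 CBF and DREB1 genes lie at 2.53 or above, while heat shock and clock genes spread around 0.

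Clock genes had 1 of 16 members higher, 4 lower and a median of −0.27. CCA1/LHY (Solyc10g005080), the morning MYB factor of the clock, had 3643, 3631 and 3662 at 4°C, against 2522, 2358 and 2582 at 24°C, and 4332 to 5191 with a median of 4758 at T0. All 6 libraries lay below T0, the ambient ones further, and the log2 difference was 0.55 ± 0.06, adjusted p = 5.92e-06. The 4 lower members are genes of the day and evening. GI-1 (Solyc04g071990), a homologue of GIGANTEA, had 493, 499 and 503 at 4°C, against 588, 751 and 864 at 24°C. GI-2 (Solyc12g056650) had 1161, 964 and 1048 at 4°C, against 1312, 1265 and 1663 at 24°C. PRR7 (Solyc10g086000), a repressor of morning genes, had 532, 559 and 471 at 4°C, against 644, 722 and 704 at 24°C. The log2 differences were −0.54 ± 0.10, −0.41 ± 0.09 and −0.41 ± 0.09. ADO3 (Solyc01g005300), also known as FKF1, a blue light receptor that targets flowering repressors, had 44.3, 35.5 and 26.5 at 4°C, against 101, 90.7 and 116 at 24°C, and 5.51 to 35.4 with a median of 13.8 at T0. Its mean was above that at T0 at both temperatures, the more so at 24°C, and its log2 difference was −1.53 ± 0.31. RVE8 (Solyc10g084370), a morning activator, had 778, 619.9 and 736 at 4°C, against 571, 563 and 522 at 24°C and was not called (adjusted p 0.0271). RVE6 (Solyc01g095030) had 649.7, 649 and 634 at 4°C, against 633, 729 and 622 at 24°C, with an adjusted p of 0.866. With only the 6 libraries at 30 min GI-1 was not called (adjusted p 0.0422). By 3 h the difference was 2.70 ± 0.06 for CCA1/LHY, −3.10 ± 0.10 for GI-1 and −1.82 ± 0.09 for PRR7, and the changes of 2.15 ± 0.09, −2.56 ± 0.14 and −1.41 ± 0.12 were called. After nuclear rescaling 3 clock genes were higher and 3 lower, and without 4°C replicate 3 or 24°C replicate 3, 1 was lower. The call depended on single libraries for GI-2 (adjusted p 0.0104 to 0.0178 without 4°C replicate 2 or 3 or 24°C replicate 3), PRR7 (adjusted p 0.0102 to 0.0201 without 4°C replicate 1 or 3 or 24°C replicate 2 or 3) and ADO3 (adjusted p 0.0109 to 0.016 without 4°C replicate 3 or 24°C replicate 1 or 3).

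Genes of light signalling and flowering had 1 of 12 members higher and 3 lower. STH2 (Solyc04g081020), a B-box factor of light signalling, had 8.68, 16.4 and 22.6 at 4°C, against 79.5, 70.5 and 59.7 at 24°C, and 11.5 to 34.6 with a median of 18.4 at T0. CDF3 (Solyc03g115940), a Dof factor that represses flowering, had 4615, 4674 and 3757 at 4°C, against 7068, 7116 and 8043 at 24°C, and 3700 to 4289 with a median of 3887 at T0. In both genes all ambient libraries lay above T0 and the chilled ones nearer to it, with log2 differences of −2.15 ± 0.42 and −0.77 ± 0.08. COL4 (Solyc12g096500), a CONSTANS-like factor, was higher, with 3645, 3620 and 3707 at 4°C, against 2369, 2199 and 2882 at 24°C, though not with the T0 libraries as 1 group (adjusted p 0.0588). PIF1 (Solyc06g008030), a factor that phytochrome degrades in light, had 301, 245 and 434 at 4°C, against 709.8, 729 and 809 at 24°C, a log2 difference of −1.23 ± 0.23. Leaving out 1 library at a time ended the call of STH2 (adjusted p 0.0114 to 0.015 without 4°C replicate 1 or 24°C replicate 1) and PIF1 (adjusted p 0.0107 without 4°C replicate 2). Without 24°C replicate 1, 1 of the 12 genes was lower.

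Genes that were lower at 4°C by larger factors had varied functions, and the unnamed genes Solyc12g008600 and Solyc10g074540 led the rule for named genes. Solyc12g008600 had 176, 234 and 192 at 4°C, against 1581, 1199 and 1256 at 24°C, and 57.1 to 209 with a median of 146 at T0. Solyc10g074540 had 1152, 1314 and 651 at 4°C, against 6613, 6277 and 5448 at 24°C, and 1094 to 1879 with a median of 1426 at T0. In both, every ambient library lay far above the T0 range. Their log2 differences were −2.74 ± 0.28 and −2.61 ± 0.19, with adjusted p of 1.66e-06 and 1.05e-08. 5PTASE2 (Solyc08g077210), an inositol phosphatase, had 1635, 1651 and 3122 at 4°C, against 6111, 4786 and 5756 at 24°C. HMG1 (Solyc03g032010), the entry enzyme of sterol and isoprenoid synthesis in the cytosol, had 443, 343 and 549 at 4°C, against 1198, 896 and 987 at 24°C. SLAH3 (Solyc03g007770), an anion channel, had 638, 716 and 1005 at 4°C, against 1870, 1716 and 1721 at 24°C. The log2 differences were −1.44 ± 0.17, −1.22 ± 0.20 and −1.20 ± 0.15. By 3 h SLAH3 stood at 1.17 ± 0.15, above 24°C, and the change of 2.36 ± 0.22 was called.

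Nitrate-related genes moved both ways, with 3 of 12 higher and 2 lower. NRT1.1 (Solyc08g078950), the nitrate transporter that also senses nitrate, had 2250, 1902 and 1801 at 4°C, against 2754, 2839 and 3302 at 24°C. NRT1.5 (Solyc08g007060), which loads nitrate into the xylem, had 93.5, 127 and 176 at 4°C, against 206, 251 and 265 at 24°C. HHO2 (Solyc05g009720), a repressor of nitrate and phosphate uptake genes, had 491, 361 and 391 at 4°C, against 216, 203 and 198 at 24°C, and 198 to 303 with a median of 287 at T0. UPM1 (Solyc01g086650), which makes the sirohaem cofactor of nitrite reductase, had 934, 1154 and 943 at 4°C, against 708, 700.3 and 707 at 24°C. The log2 differences were −0.58 ± 0.13, −0.90 ± 0.20, 0.99 ± 0.16 and 0.51 ± 0.10. With single libraries left out, the call was lost for NRT1.1 (adjusted p 0.0126 to 0.0315 without 4°C replicate 2 or 3 or 24°C replicate 2 or 3), NRT1.5 (adjusted p 0.0194 to 0.0468 without 4°C replicate 1 or 2 or 24°C replicate 2 or 3) and UPM1 (adjusted p 0.01 to 0.0136 without 4°C replicate 2 or 24°C replicate 2).

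Heat shock genes gave 1 call among 20, with a median of 0.04. That is 5.00%, against 5.48% of all nuclear genes and 172 of the 768 with a name. HSFA4C (Solyc07g055710), a heat stress factor, had 65.6, 52.7 and 63.7 at 4°C, against 9.70, 23.8 and 7.27 at 24°C, with a log2 difference of 2.24 ± 0.37, adjusted p = 0.000391. HSFA2 (Solyc08g062960), the factor that sustains heat tolerance, had 14.9, 7.74 and 25.3 at 4°C, against 37.8, 25.6 and 62.4 at 24°C and was not called (adjusted p 0.0191). At 3 h its difference was −4.81 ± 0.37. Membrane lipid signalling genes gave 1 call among 8, which was NPC2 (Solyc01g008790), a phospholipase, with 451, 469.5 and 496 at 4°C, against 690.4, 876 and 857 at 24°C. The elongation factor EF1a (Solyc06g005060), a common reference transcript, had 41760, 39090 and 39840 at 4°C, against 46310, 46590 and 39630 at 24°C and was not called (adjusted p 0.167).

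Of 1318 tested genes from an earlier study of chilled tomato, 214 (16.2%) were higher at 4°C and 72 (5.46%) lower, with a median log2 difference of 0.20, against 2.24% and 3.24% of all nuclear genes and a median of −0.069. Without 24°C replicate 3 the counts were 156 and 46. In the list of that earlier study the direction of change there was not used, so these counts do not set the directions against each other.

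To place these differences against the start, called genes were sorted by the study's classes: induced or repressed when the mean at 4°C was at least 1.5-fold above or below the mean of the 6 T0 libraries, static when only the mean at 24°C passed that limit, and indeterminate otherwise. Most called genes that were higher at 4°C had stayed near T0 in the cold while the ambient shoots fell below it. Of the 457, 320 were static, 62 induced, 66 indeterminate and 9 repressed. The mean at 24°C lay below T0 in all 320 static genes, which follows from the class limits and the direction of the call. Of the 660 lower genes, 247 were static, 77 repressed, 333 indeterminate and 3 induced. In the 247 static ones the mean at 24°C lay above T0, again by definition. In total 567 of the 1117 were static, 65 induced and 86 repressed. CBF2, CBF3, ZAT10, MAPKKK15, LBD37 and XTH23 Solyc03g093110 were among the induced genes, and PIF1 and ARF7 among the repressed ones. CBF1, CBF4, both WRKY33 genes and CML24 were static. NCED3 fell in the repressed class although it was higher at 4°C than at 24°C, since both means lay below T0.

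The classes rest on ratios of means without a test, and both temperatures were moved to fresh containers while T0 plants were not, so that the move and the passing of time cannot be told apart in the ambient shoots. With nuclear rescaling 34 of the lower genes were repressed, with a limit of 2-fold 18 of the higher genes were induced, and without 4°C replicate 2 there were 41. Without 4°C replicate 3, 158 of the lower genes were repressed, against 48 without 4°C replicate 1 and 44 without 24°C replicate 3.

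**Figure D4:**
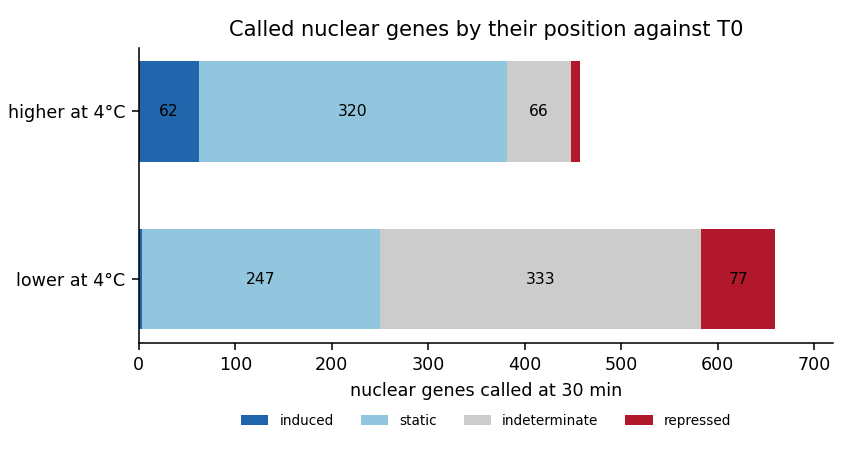
Called nuclear genes, counted along the horizontal axis, are split by their class against T0 for genes higher and genes lower at 4°C than at 24°C at 30 min. Static genes (light blue) are the largest class of the higher genes, at 320, and indeterminate ones (grey) of the lower genes, at 333.

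Most genes called at 30 min differed in the same direction between 4°C and 24°C at 3 h. The 3 h libraries did not enter the 30 min differences, though they shared the estimate of spread behind the calls. Of the 457 higher genes, 378 (82.7%) were called higher at 3 h, 14 lower and 65 not called. Of the 660 lower genes, 439 (66.5%) were called lower at 3 h, 32 higher and 189 not called. The background at 3 h was high, since 39.2% of nuclear genes were called there, 9.05% higher and 30.1% lower. The difference changed between the times for 189 of the 457 and for 176 of the 660 in the interaction test of limma, against 11.7% of all nuclear genes. Of those 189, 148 were larger at 3 h and 41 smaller or turned, and of the 176, 93 were larger and 83 smaller or turned. The genes were selected by their 30 min difference, which is part of this contrast. Neither the comparison with all nuclear genes nor the counts that were smaller or turned are independent of that selection. Genes with a larger difference at 3 h include CBF3, EXO and XTH23, and genes that turned include LBD37, GA3OX1 and SLAH3. The 2 times also differ in sequencing batch, which cannot be told apart from time in this test.

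Transcripts of the plastid genome were far higher at 4°C. Of 136 plastid features, 127 were called higher, none lower and 9 not called, with a median log2 difference of 4.96. The mean share of all values was 4.97 ± 1.16% at 4°C, against 0.424 ± 0.211% at 24°C (SD, n = 3 each), and at T0 it was 2.19 ± 0.135% in the batch of the 30 min libraries and 0.503 ± 0.186% in the other. Most of that share was ribosomal RNA, at 3.37, 4.88 and 3.03% at 4°C, against 0.158, 0.311 and 0.537% at 24°C. Ambient shoots thus lay below the T0 libraries of their own batch, and chilled shoots above them.

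The groups of plastid genes differed in size of change. For genes of photosystem II, 15 of 15 were higher (median 4.45). The gene psbA, which encodes the D1 protein of its reaction centre, had 18750, 25670 and 16980 at 4°C, against 822, 1749 and 2921 at 24°C. The gene psbB, for an antenna protein, had 8752, 11960 and 8810 at 4°C, against 178, 242 and 458 at 24°C. Photosystem I gave 5 of 5 (median 4.24), with psaA, a reaction centre gene, at 13690, 18310 and 13700 at 4°C, against 173, 308 and 1045 at 24°C. Cytochrome b6f gave 6 of 6 (median 4.54) and the NDH complex 11 of 12 (median 3.76). The gene rbcL, which encodes the large subunit of Rubisco, had 13370, 16250 and 12220 at 4°C, against 468, 887 and 1254 at 24°C. ATP synthase genes moved least, with 6 of 6 higher and a median of 2.24, and atpB, a catalytic subunit gene, had 3326, 5171 and 3573 at 4°C, against 1227, 1749 and 1355 at 24°C. By the ratio to T0, atpB counted as repressed, since its mean of 4023 at 4°C lay below the mean of 6361 over the 6 T0 libraries. That T0 mean rests on the batch of the 3 h samples (9393), while T0 of its own batch averaged 3329, below the chilled shoots. Its call, and that of psbA, was lost with the T0 libraries as 1 group (adjusted p 0.0245 for atpB and 0.0157 for psbA).

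Among genes of the plastid's own expression machinery, those of transfer RNA and RNA polymerase had the highest medians of the plastid groups, while the median of ribosomal protein genes lay below those of both photosystems. The 4 RNA polymerase genes were all higher (median 5.81), and rpoB had 1761, 2246 and 1844 at 4°C, against 14.6, 29.5 and 40.2 at 24°C. Of 41 transfer RNA genes 38 were higher (median 6.45), and trnI-GAU had 18920, 25660 and 20000 at 4°C, against 59.2, 56.0 and 103 at 24°C. These values count reads over each gene. Whether reads at transfer RNA genes come from the mature RNA or from longer transcripts was not tested, so they are no measure of transfer RNA amounts. The gene matK, a splicing factor encoded within a transfer RNA intron, had 11920, 13700 and 12310 at 4°C, against 114, 188 and 150.3 at 24°C. Of 25 ribosomal protein genes 21 were higher (median 3.97). The gene rps7 had 1723, 2895 and 1910 at 4°C, against 2030, 3015 and 2455 at 24°C and did not pass the test (adjusted p 0.416). Genes of the inverted repeat, such as those of ribosomal RNA, trnI-GAU, ndhB and rps7, are present in 2 copies in the plastid genome, so that reads may be split between copies.

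Few mitochondrial transcripts differed. Of 31 mitochondrial features, 1 was higher, 1 lower and 29 not called by limma, with a median log2 difference of −0.18. Their share of all values was 0.0419, 0.0608 and 0.0231% at 4°C, against 0.0359, 0.0648 and 0.066% at 24°C, and the groups overlapped. The gene rpl2 had 144, 259.5 and 137 at 4°C, against 81.5, 99.8 and 73.2 at 24°C, a log2 difference of 1.03 ± 0.21, and rps1, also a ribosomal protein gene, had 1.11, 3.47 and 1.69 at 4°C, against 7.77, 12.7 and 18.9 at 24°C, a difference of −2.19 ± 0.47. Without certain single libraries there was no call for rpl2 (adjusted p 0.0141 to 0.0197 without 4°C replicate 2 or 24°C replicate 1 or 3) and rps1 (adjusted p 0.0133 to 0.0265 without 4°C replicate 1 or 3 or 24°C replicate 2 or 3). The gene nad4, of respiratory complex I, had 90.2, 148 and 93.6 at 4°C, against 105, 148 and 117 at 24°C. The gene atp1, of ATP synthase, had 21.5, 57.2 and 23.0 at 4°C, against 10.7, 48.2 and 57.3 at 24°C. Of the plastid genes, 125 of the 127 called higher were called higher again at 3 h, as was rpl2 of the mitochondrion.

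**Figure D5:**
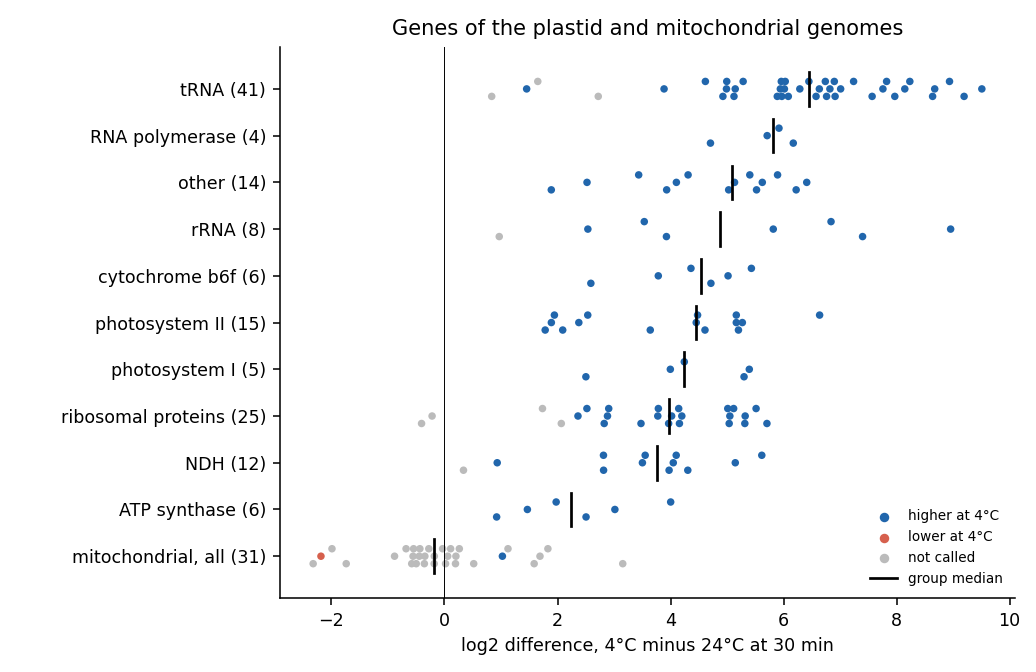
Each point is a gene of the plastid genome, by functional group, or of the mitochondrial genome, placed by its log2 difference at 30 min (4°C minus 24°C), with the group's median as a line. Plastid groups have medians from 2.24 to 6.45, and the 31 mitochondrial features spread around 0.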

How the data were processed

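Shoots of 4 seedlings were pooled per library, libraries were made with a TruSeq RNA kit and sequenced as paired-end reads, and the authors mapped reads with BBMap, counted them per gene with featureCounts and normalized the counts with edgeR by the trimmed mean of M-values (software versions not given in the sources used here). The deposited values are this signal, a normalized count per gene, and libraries sum to 20328938 to 20332140. Of the values 20.2 to 62.4% came out as whole multiples of 1 read (tolerance 0.1), so reads could not be recovered and no count model was used. The paper reports a range of sequencing depths, and depth per library was not used here. The study itself tested counts by a quasi-likelihood method.

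Features that reached a value of 10 in 3 or more of the 18 shoot libraries were tested with limma 3.58.1 in R 4.3.3 on log2(value + 1), with trended moderation, in 6 groups (T0 of each batch, and both temperatures at both times), and called at an adjusted p under 0.01 (Benjamini-Hochberg over all features). A fold change on this scale understates the change of low genes. Tested on simulated data of the comparison (20535 genes), the fit called 22% of genes changed 1.5-fold, 66% at 2-fold, 88% at 4-fold and 98% at 8-fold, and 1 of 20335 unchanged genes. The simulated noise was normal and independent between genes and libraries. It held no batch, no deviating library and no shift of the plastid share, so these rates need not hold for the real libraries. The paper describes each replicate as a pool of 4 seedlings, and p-values measure the spread between libraries within the 6 groups. At T0 the 2 batches followed the same replicate order in some genes. RRTF1 had 590, 395 and 86.3 in batch 1 and 547, 380 and 96.8 in batch 2. JAZ1 had 2157, 2183 and 351 in batch 1 and 1420, 1334 and 242 in batch 2. Whether the 6 T0 libraries are 6 separate pools was not tested. Lists and named genes were chosen with earlier results of these data known. Named genes are list members (of lists over 24 genes, the 6 with the lowest adjusted p and the 4 with the highest mean), the 15 furthest in each direction with a mean of at least 100 (unnamed ones limited to 2 each way), genes the study names, and the organellar genes with the highest means. The gene rps1, one of 2 mitochondrial calls, was chosen after its values were seen. Names came from the study's tables for 768 of 20378 nuclear genes, and identifiers are given without the version suffix. Promoter motifs and product-name families were not analysed here. Alternatives covered the pseudocount, filter, scaling, moderation, libraries fitted, T0 grouping, threshold, replicate block and leaving out each library. Figures were drawn with matplotlib 3.10.9 in Python 3.11.15.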

Additional observations from a re-analysis of the deposited data

Results flagged for a closer look

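For 51 of the 94 named genes the difference between 4°C and 24°C changed between 30 min and 3 h in limma's interaction test at an adjusted p under 0.01, against 11.7% of all nuclear genes, and the named genes were chosen with earlier results of these data known. The 2 times were sequenced in different batches, which cannot be told apart from time, and the values below are the difference at 3 h minus that at 30 min on the log2 scale.

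Among genes that were higher at 4°C at 30 min, the difference was larger at 3 h for CBF3 (6.26), CBF2 (3.43), CBF1 (2.81), ZAT10 (3.52), AZF3 (4.29), CZF1 Solyc05g052550 (2.42), CZF1 Solyc05g052570 (2.33), WRKY33 Solyc09g014990 (1.88), ERF4 (1.74), ANAC062 (1.19) and PAT1 (1.65). In signalling and hormone genes it was larger for CML38 (3.36), CML24 (2.18), CML42 (0.918), ACA2 (2.66), MPK3 (2.00), PUB22 (2.13) and CYP94B1 (2.74). In wall, polyamine, sugar, clock and nitrate genes it was larger for XTH23 Solyc03g093110 (5.18), XTH15 (5.51), EXO (4.94), TPS7 (1.38), SAMDC2 (2.77), ADC2 (2.19), CCA1/LHY (2.15) and UPM1 (1.84), and in the plastid for psbA (2.12). It was smaller or turned for LBD37 (−2.71), LBD41 (−1.99), GA3OX1 (−2.49), HHO2 (−0.917) and atpB (−0.998).

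Among genes that were lower at 4°C at 30 min, the difference was further below 0 at 3 h for GI-1 (−2.56), GI-2 (−1.95), PRR7 (−1.41), NPC2 (−0.615) and LOX5 (−0.473). It moved upward for SLAH3 (2.36), CDF3 (1.22), NRT1.1 (1.38), ARF16 (1.59), ARF7 (0.629), 5PTASE2 (1.83), CRF2 (1.36), Solyc10g074540 (1.70), Solyc12g008600 (2.50) and rps1 of the mitochondrion (3.49). Among genes not called at 30 min, it changed for RVE8 (2.34), RVE6 (0.841), CAM5 (1.83) and HSFA2 (−3.42).

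Of 96 named features looked at over the 6 T0 libraries, 1 had a library set apart from the others. HHO2 had its lowest T0 library at 197.7, against a median of 286.5 and a highest value of 302.7, where the gap was 0.667 of the range and the limit is 0.625. Chance alone gives such a gap in about 1 of 20 groups of independent libraries.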

How the results depend on the processing

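Against 1246 features called as reported, 713 were called with the T0 libraries as 1 group (nuclear: 294 higher at 4°C, 301 lower), 2437 at an adjusted p under 0.05 (808 higher, 1496 lower), 799 with only the 6 libraries at 30 min (330 lower) and 736 with those rescaled over nuclear genes (248 lower), a setting added after seeing the data. The cause was not tested. Equal nuclear sums, also added later, left 416 lower, with 57% of nuclear calls higher at 4°C, against 53.6% after nuclear rescaling and 40.9% as reported. Leaving out 1 library gave 795 to 1180 features, 296 to 452 nuclear genes higher and 372 to 600 lower, 126 to 129 organellar calls and 36 to 57 list members called, against 61. With a limit of 2-fold for the classes, 18 genes were induced, all 18 of them higher, 22 repressed, 354 static and 723 indeterminate, with 21 lower and repressed and 106 lower and static. Nuclear rescaling left 39 repressed genes, 34 of them lower. With 1 library left out, 43 to 92 genes were induced, 52 to 169 repressed, 386 to 502 static and 181 to 362 indeterminate, with 222 to 289 higher and static, 41 to 91 higher and induced, 44 to 158 lower and repressed and 164 to 213 lower and static. Of the 82 named genes that were called, 44 were called under every one of the 19 alternatives, and none turned its direction under any. A change between 30 min and 3 h was no longer called after nuclear rescaling for NPC2, HHO2, LOX5 and atpB.

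Deviations from the group means correlated at 0.00093, 0.12 and 0.023 between chilled and ambient libraries of the same replicate number, and at −0.13 to 0.12 between others. Libraries of the same number were thus no more alike than others in this comparison. It cannot exclude pairing by replicate number, since each group holds few libraries and the other groups were not compared in this way. The shared replicate order of RRTF1 and JAZ1 at T0, given above, also leaves pairing undecided. With a replicate block on the 6 libraries 745 features were called, 325 nuclear genes higher and 293 lower, and of the jasmonate list 4 were higher and none lower. HSFA4C was not called with the block (adjusted p 0.0185). The paper reports a range of sequencing depths, but depth was not weighed per library here. Promoter motif counts and product-name families, which were planned, were not run.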
